A study of Vitis vinifera with 60 samples.

Results

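Negroamaro, a black-berried wine grape of southern Italy, was compared with 4 other red-berried cultivars, Sangiovese, Barbera, Refosco and Primitivo, in the berries before harvest. The Negroamaro libraries were 9 of the 60 in the series, 3 biological replicates at each of 3 stages, and the other cultivars gave 36 libraries at the same stages. The stages were pea-sized berries, berries that had begun to touch within the bunch, and soft berries. All vines stood in one vineyard near Conegliano in the Veneto region and were sampled in one season, with no treatment named in the labels. RNA was taken from the pericarp, which is the whole berry without its seeds, so skin and flesh were not separated. The harvest columns were kept out of the comparison because those labelled Negroamaro and Primitivo resemble each other's cultivar, and they are described at the end.

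The grape berry grows in an early green phase, pauses, and then enters ripening. Softening marks that entry: sugars begin to accumulate, acids decline, and the skin of red cultivars starts to colour with anthocyanins. Wine cultivars are propagated by cuttings, so the vines of one cultivar share a genotype.

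Levels are in FPKM, which scales a gene's fragments to the length of its transcript and to the size of the library. Each gene has 1 value for a cultivar at a stage, taken here as the authors' mean of the 3 replicates. The spread between replicate berries is therefore not in these values. In their place the stages of each cultivar were used as its repeats, and p-values speak of these columns, not of replicate vines. Genes are given by locus tag, because 0 of the 29971 tags occur in the reference table and the authors' table lists no gene names. The digits after VIT_ are called the chromosome field, and 0 stands for sequence not placed on a chromosome. Columns totalled 787405 to 1096120 FPKM. At 1 FPKM or more, Negroamaro had 18011 genes in pea-sized, 17551 in touching and 16779 in soft berries. The other cultivars had 17801 to 18076, 17264 to 17326 and 16103 to 16524, so that Negroamaro was the highest of the 5 in touching and soft berries but not in pea-sized ones.

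Of 18198 genes tested, 316 stood above the mean of the other 4 cultivars in Negroamaro (1.74% of those tested) and 212 stood below it (1.16%). A gene was called at an adjusted p under 0.05 in limma, with stage and cultivar in the model, and a difference of at least 1 on the log2(FPKM + 1) scale from the mean of the other 4. This scale understates the change of low genes. Most called genes differed moderately, with a median log2 difference of 1.42 among those above and -1.38 among those below. A difference of at least 2 log2 units was found for 61 genes above and 37 below, and one of at least 4 for 1 and 4 genes. Over all genes tested the median difference was 0.04. In 183 of the 316 genes above, and in 115 of the 212 below, Negroamaro lay outside the range of the other 4 cultivars at all 3 stages. It lay outside on that side at only 1 stage in 26 genes above and 26 below. In 15 genes above and 22 below it did so at no stage, so there another cultivar was as far or further on that side each time. Among all genes tested, Negroamaro lay above the range in 3537 (pea-sized), 4688 (touching) and 4114 genes (soft). It lay below the range in 3092, 2841 and 2677 genes. The number outside at all 3 stages among all genes is not given here. Calls and ranges come from the same columns, so lying outside is not separate support for a call. Leaving out the touching berries lowered the counts most among the cultivars and stages left out in turn: without them 39 genes were above and 27 below. When the spread among the other 4 cultivars was left in the residual, 72 were above and 68 below.

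**Figure D1:**
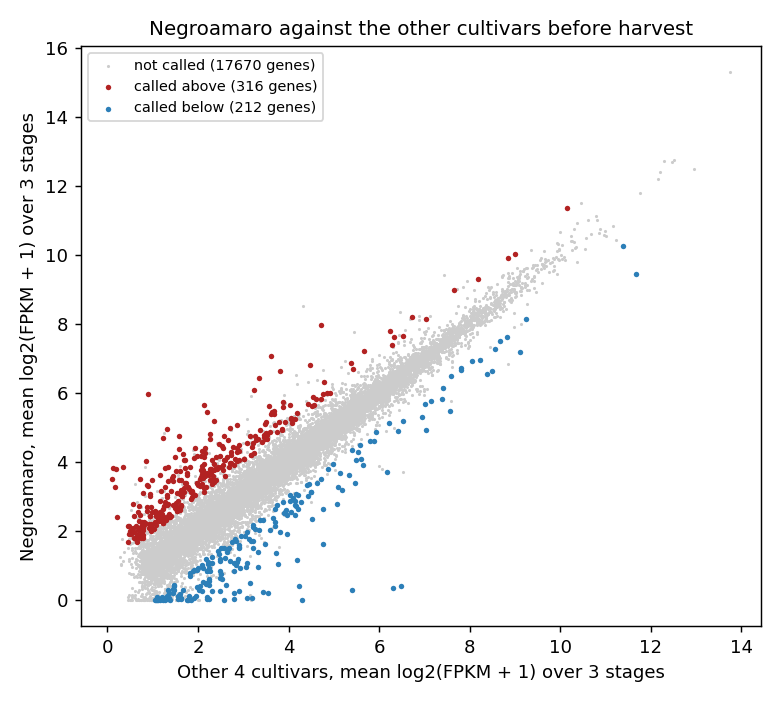
Each point is a gene, with the mean log2(FPKM + 1) over 3 stages of the other 4 cultivars on the horizontal axis and that of Negroamaro on the vertical axis. The 316 genes called above (red) and the 212 called below (blue) lie at all levels, and a few genes below sit near 0 in Negroamaro while the others are high.

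The gene furthest above the others was VIT_00s0587g00010, on sequence not placed on a chromosome. It stood at 114 FPKM in pea-sized, 87.9 in touching and 23.7 in soft berries of Negroamaro. In pea-sized berries the others had 0.420 (Sangiovese), 0.989 (Barbera), 1.22 (Refosco) and 1.98 FPKM (Primitivo). In touching berries they had 0.352, 0.375, 2.00 and 1.98 FPKM, and in soft berries 0.249, 0.377, 0.425 and 1.10 FPKM, in the same order. The groups did not overlap at any stage, which the rule for named genes required, and the level in Negroamaro declined towards softening. The log2 difference was 5.09 (SE 0.28, limma adjusted p = 9.31e-06). The others averaged 0.956 FPKM, so the gene passed the filter of a mean of 1 FPKM for testing only through Negroamaro.

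VIT_15s0024g00940, on chromosome field 15, was second. Negroamaro had 13.2, 17.5 and 9.91 FPKM in pea-sized, touching and soft berries, and every other column was at or below 0.259 FPKM. Its level was modest and of the same order at each stage. Negroamaro was higher by 3.70 log2 units (SE 0.14, limma adjusted p = 4.24e-07). The others averaged 0.0978 FPKM, so this gene too passed the 1 FPKM filter only through Negroamaro. Its small SE rests largely on columns near 0.

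VIT_09s0018g01410, on chromosome field 9, was the gene furthest below. Negroamaro had 0.637 FPKM in pea-sized berries, was listed at 0 in touching ones and had 0.397 FPKM in soft ones. In pea-sized berries the other cultivars had 56.7 (Sangiovese), 88.8 (Barbera), 106 (Refosco) and 55.4 FPKM (Primitivo). In touching berries they had 55.5, 149, 136 and 67.1 FPKM, and in soft berries 67.6, 156, 117 and 75.9 FPKM. The gene was thus expressed at every stage in the other 4 cultivars and at or near 0 in Negroamaro, differing by -6.08 log2 units (SE 0.17, limma adjusted p = 4.66e-08). It was the only gene under 1 FPKM at all 3 stages in Negroamaro and at 10 FPKM or more in every other column.

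VIT_12s0034g01730, on chromosome field 12, followed. Negroamaro had 1.10 FPKM in pea-sized berries and was listed at 0 at both later stages. The others ranged from 39.9 to 221 FPKM in pea-sized, from 54.6 to 252 in touching and from 12.8 to 248 in soft berries, with Sangiovese the highest each time. The 4 other cultivars spread widely, but none came near Negroamaro, and the log2 difference was -5.94 (SE 0.41, limma adjusted p = 3.71e-05). With the harvest columns added as labelled its adjusted p was 0.104.

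The reverse pattern of a gene on in Negroamaro alone, at 10 FPKM or more in its 3 columns and under 1 FPKM in all 12 others, was also met by a single gene, VIT_00s0187g00030. It stood at 12.6, 12.5 and 13.6 FPKM in pea-sized, touching and soft berries of Negroamaro, and at most at 0.270 FPKM elsewhere. The level in Negroamaro was nearly the same at the 3 stages. The other cultivars averaged 0.140 FPKM, so the gene passed the 1 FPKM filter for testing only through Negroamaro. Its small SE rests largely on columns near 0. Negroamaro was higher by 3.61 log2 units (SE 0.10, limma adjusted p = 4.66e-08), and with the harvest columns added as labelled the adjusted p was 0.0658. By the same rules Sangiovese had 2 genes off and 0 on, Barbera 0 and 0, Refosco 0 off and 1 on, and Primitivo 0 off and 2 on.

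Some genes were listed at 0 in Negroamaro throughout. VIT_10s0116g00040, on chromosome field 10, was listed at 0 in all 3 Negroamaro columns, and so was VIT_15s0024g00670 on chromosome field 15. These were the 2 genes listed at 0 throughout in Negroamaro and at 1 FPKM or more in every column of the others, and they were singled out after their values were seen. In the other cultivars VIT_10s0116g00040 was higher at later stages. It ran from 5.71 to 11.3 FPKM in pea-sized, from 6.85 to 25.2 in touching and from 28.7 to 83.4 in soft berries, and its log2 difference was -4.31 (SE 0.39, limma adjusted p = 0.000195). With the harvest columns added as labelled it was -2.65 (adjusted p = 0.234), and with zeros beside high values set to missing, as below, it was -3.21 (adjusted p = 0.000699). Single zeros among high values also occur. Each of the 15 columns held 9 to 23 genes listed at 0 where the other columns of the stage averaged 10 FPKM or more. Whether these are failed estimates cannot be told from the table. With the 223 such values among the tested genes set to missing, 316 genes were above and 213 below.

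**Figure D2:**
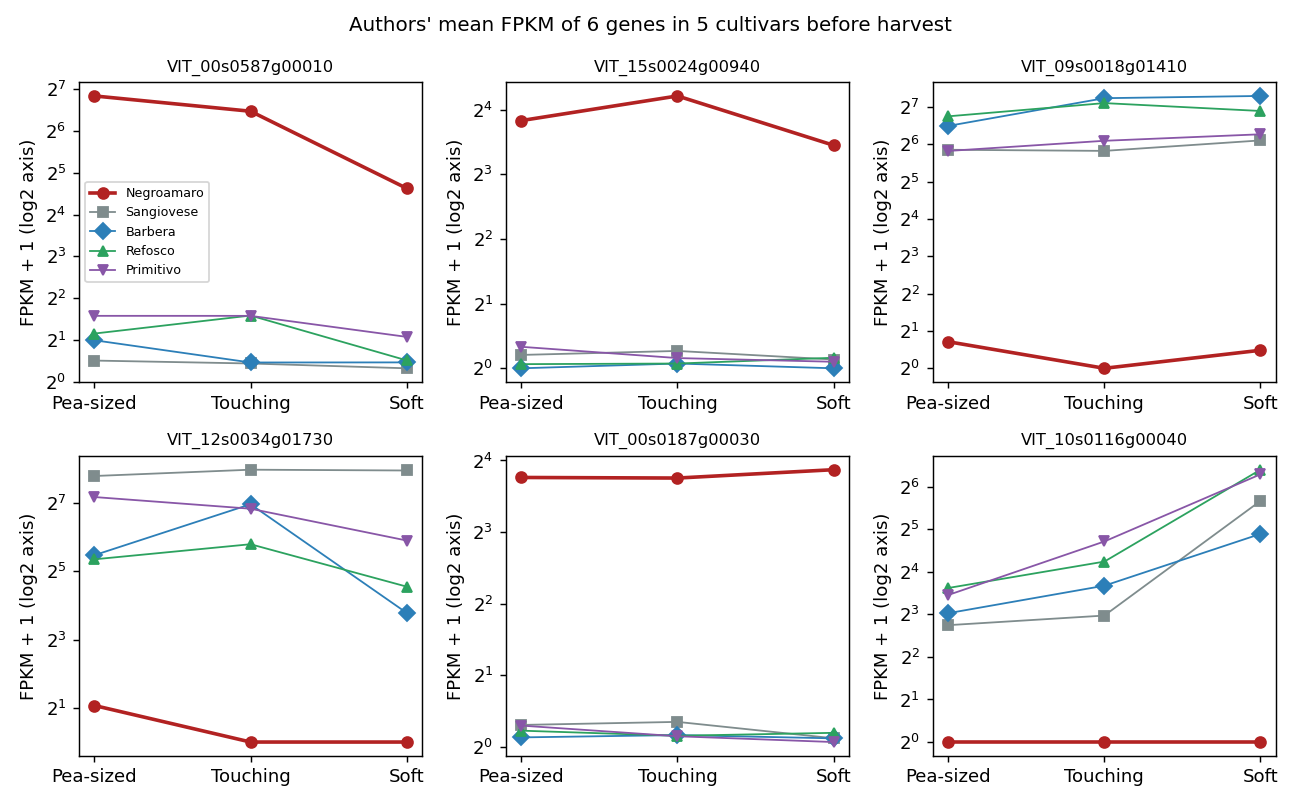
Authors' mean FPKM, plus 1 and on a log2 axis, of 6 genes at 3 stages, with one line per cultivar and Negroamaro in red. Negroamaro lies above the other 4 lines in 3 panels and below them in 3. The absence of overlap at every stage was required by the rules that chose these genes.

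The called genes were mostly of low or middling abundance. The higher side averaged at least 10 FPKM over the 3 stages for 178 of the genes above and 108 of those below. It reached 100 FPKM for 22 and 25 genes, and 1000 FPKM for 3 and 2 genes. Among the genes in which Negroamaro was outside the range throughout, the most abundant below was the entry that joins VIT_18s0001g14260 and VIT_18s0001g14270. Negroamaro had 2068, 1367 and 116 FPKM in pea-sized, touching and soft berries. The others ranged from 2723 to 12248 FPKM, from 3562 to 18064 and from 292 to 2705, with Refosco highest at each stage. Primitivo was the nearest in pea-sized, touching and soft berries alike. On the log2 scale Negroamaro differed by -2.25 (SE 0.38, limma adjusted p = 0.00615), and the adjusted p was 0.187 without the touching berries and 0.132 with the spread among the others in the residual. Reads can be divided between joined or near-identical copies, so this level is uncertain.

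Among the abundant genes above was VIT_04s0008g04060, on chromosome field 4. The most abundant gene above that was outside the range throughout, VIT_11s0016g03630, differed by 1.21 log2 units (SE 0.27, limma adjusted p = 0.0218), and its call was lost without Primitivo (adjusted p = 0.0628) and without any one stage (adjusted p = 0.0508 to 0.329). For VIT_04s0008g04060 Negroamaro had 469 FPKM in pea-sized, 385 in touching and 88.3 in soft berries. The others ranged from 11.6 (Primitivo) to 183 FPKM (Barbera), from 7.36 (Primitivo) to 113 (Barbera) and from 1.54 (Primitivo) to 49.4 (Refosco). All 5 cultivars were lower in soft than in touching berries. Negroamaro stayed the highest, as the gene was picked from those outside the range throughout. Negroamaro was higher by 3.26 log2 units (SE 0.36, limma adjusted p = 0.000541), with an adjusted p of 0.0942 without the touching berries and 0.131 with the spread among the others in the residual. These abundant genes were named after their values were seen.

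In few of the called genes did the other cultivars form one uniform level. The other 4 were within 2-fold of each other at all 3 stages in 23 of the 183 genes in which Negroamaro was above them throughout, and in 21 of the 115 in which it was below. No cultivar was the nearest to Negroamaro in most of the called genes. Among the 316 genes above, the nearest cultivar was Barbera in 93, Sangiovese in 87, Primitivo in 71 and Refosco in 65. Among the 212 genes below, it was Barbera in 60, Primitivo in 59, Refosco in 50 and Sangiovese in 43. A nearest cultivar exists for every gene, even where all 4 lie far from Negroamaro, so these counts do not measure a shared side. The same counts over all genes tested are not given here.

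Called genes were found on every chromosome field. Genes above made up 3.17% of those tested on field 16, 2.62% on field 13 and 2.33% on field 12, against 0.520% on field 17. Genes below made up 2.33% on field 12 and 0.263% on field 8. On sequence not placed on a chromosome the shares were 3.35% above and 2.42% below. A neighbouring tested gene was called in the same direction for 83 of the 316 genes above and for 27 of the 212 below. Runs of 3 or more adjacent genes numbered 8 above and 3 below, and the 3 runs of 4 or more were all above. No test of clustering was made. Where neighbours are close copies, reads may have been split between them, so the sum of a run is firmer than its number of genes.

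The run on chromosome field 4 (scaffold field 0008) held 4 genes with log2 differences from 1.26 to 2.12. Its summed level in Negroamaro was 132 FPKM in pea-sized, 134 in touching and 9.75 in soft berries. The others had 52.6 to 96.5 FPKM in pea-sized and 19.8 to 45.0 FPKM in touching berries, each lower at the second stage, and at most 0.958 FPKM in soft ones. Negroamaro was the highest each time, and its touching berries kept the level of its pea-sized ones.

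The run on chromosome field 13 (scaffold field 0156) held 5 genes, with log2 differences from 1.20 to 2.12. Its sum was 58.0, 45.9 and 63.5 FPKM in Negroamaro. Sangiovese and Barbera lay between, at 22.3 to 46.1 FPKM over the 3 stages, and Refosco and Primitivo were low at 5.80 to 11.6 FPKM. This scaffold field had 7 genes above and 0 below among 42 tested.

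The run on chromosome field 16 (scaffold field 0100) also held 5 genes, with log2 differences from 1.37 to 1.91. Its sum in Negroamaro was 52.5 FPKM in pea-sized, 29.0 in touching and 76.9 in soft berries. In pea-sized berries Barbera was higher, at 62.1 FPKM, with Sangiovese at 33.6, Refosco at 19.1 and Primitivo at 13.3 FPKM. In touching berries the others had 3.86 to 8.89 FPKM, and in soft berries 3.45 to 19.4 FPKM. Negroamaro thus stood apart in the sum at the later stages and not in pea-sized berries. The scaffold field had 10 genes above and 0 below among 73 tested. Scaffold field 0034 of chromosome field 12 had 10 genes above and 4 below among 103 tested.

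**Figure D3:**
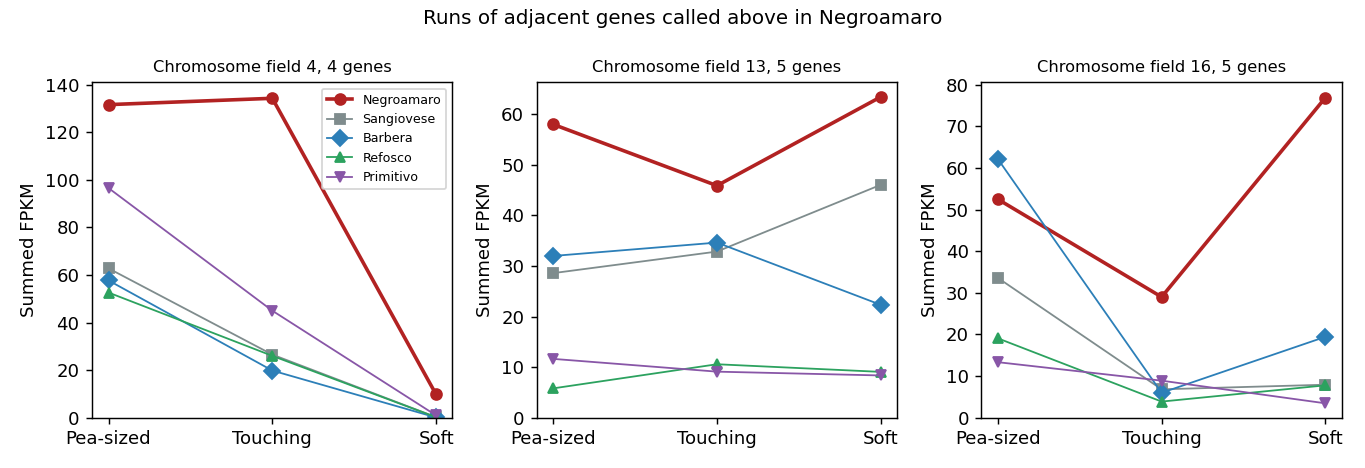
Summed FPKM of the 3 runs of 4 or more adjacent genes called above in Negroamaro, by stage, with one line per cultivar. Negroamaro (red) is highest at all stages on fields 4 and 13, while on field 16 Barbera is higher in pea-sized berries.

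Stage by stage, with 1 column against 4 and therefore no test, Negroamaro stood apart in more genes above than below once the berries touched. A gene was counted where Negroamaro was at least 2-fold from the mean of the others and outside their range. In pea-sized berries 374 genes were above (2.06%) and 354 below (1.95%). In touching berries 677 were above (3.72%) and 354 below (1.95%). In soft berries 808 were above (4.44%) and 337 below (1.85%). The share of these genes that were above was thus 51.4%, 65.7% and 70.6%. After quantile normalization, which gives every column the same distribution, it was 49.6%, 55.4% and 58.4%, from 550 above and 442 below in touching and 660 and 470 in soft berries. Negroamaro also had the most genes at 1 FPKM or more at these later stages, as given above, and the part of this in the counts was not tested.

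**Figure D4:**
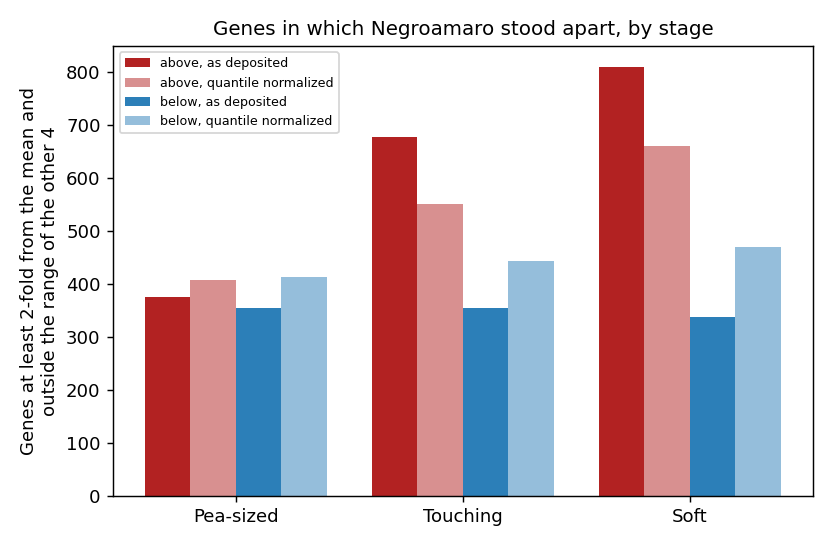
Number of genes at least 2-fold from the mean and outside the range of the other 4 cultivars, above (red) and below (blue) in Negroamaro, at each stage, from the deposited values (full colour) and after quantile normalization (pale). The bars above rise from 374 to 808 as deposited and from 407 to 660 after normalization.

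Many of these differences were seen at one stage and not at the next by this rule. Above, touching and soft berries shared 266 genes, 39.3% of the touching and 32.9% of the soft list. Pea-sized and touching berries shared 208, which was 55.6% and 30.7% of their lists. Below, the shared genes were 102 (28.8% and 30.3%) and 142 (40.1% of each list). At all 3 stages 111 genes were above and 52 below. In soft berries alone 502 genes were above and 213 below, and 30 genes were above at one stage and below at another. A list of 1 column against 4 misses genes just inside its limits, so these shares do not show that a difference began or ended.

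Some genes illustrate the stages. They were picked, after the values were seen, from among the largest differences with no value of 0 at that stage, and some large differences are not described. In pea-sized berries VIT_00s0256g00010 and VIT_00s0256g00030, which share a scaffold field, differed in opposite directions. The first had 39.9 FPKM in Negroamaro and 0.284 to 2.48 FPKM in the others, and the second had 0.499 FPKM against 17.7 (Primitivo), 57.4 (Barbera), 98.7 (Sangiovese) and 100 FPKM (Refosco). Both were low in soft berries, where the first was at most at 0.0315 FPKM and the second at most at 12.5 FPKM in any cultivar. Over the 3 stages the others averaged 0.894 FPKM for VIT_00s0256g00010, so it passed the 1 FPKM filter only through Negroamaro. It was not called over the stages (limma adjusted p = 0.0817).

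In touching berries VIT_03s0063g02380 was at 409 FPKM in Negroamaro, above Primitivo at 155, Barbera at 69.6, Refosco at 10.7 and Sangiovese at 0.323 FPKM. The entry that joins VIT_05s0020g00080 and VIT_05s0020g00090 was at 0.300 FPKM in Negroamaro and 0.588 FPKM in Barbera, but at 42.6, 51.0 and 48.0 FPKM in Sangiovese, Refosco and Primitivo. In pea-sized berries Barbera had 23.4 FPKM of it, close to the other 3, and Negroamaro 0.550 FPKM. Negroamaro was therefore alone at the bottom in pea-sized berries and had Barbera beside it later.

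In soft berries VIT_08s0007g06060 reached 640 FPKM in Negroamaro, where Barbera had 125, Refosco 6.15, Sangiovese 2.63 and Primitivo 1.86 FPKM. VIT_05s0077g01650 reached 585 FPKM in Negroamaro, where Sangiovese had 141 and the other 3 had 3.13 to 9.82 FPKM. Both were far lower in touching Negroamaro berries, at 14.5 and 65.6 FPKM. Below, VIT_14s0081g00020 was at 6.15 FPKM in Negroamaro and at 139 (Sangiovese), 270 (Barbera), 388 (Primitivo) and 453 FPKM (Refosco) in the others. In touching berries the same gene was at most at 4.15 FPKM in any cultivar, so that the 4 others were far higher after softening while Negroamaro went from 3.36 to 6.15 FPKM. VIT_15s0021g00540 was at 0.514 FPKM in Negroamaro, near Barbera at 0.890 FPKM, and at 29.7, 53.5 and 168 FPKM in Refosco, Primitivo and Sangiovese. In pea-sized and touching berries Negroamaro had been the highest for it, at 10.1 and 4.69 FPKM. Neither VIT_14s0081g00020 nor VIT_15s0021g00540 was called over the stages (limma adjusted p = 0.649 and 0.906). Neither passed the test of stage dependence given below.

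The genes above in soft Negroamaro berries held a larger share of genes with higher levels late in ripening than all genes did. Late change was read from columns that the soft comparison did not use, harvest minus pea-sized berries in Sangiovese, Barbera and Refosco. Of the 808 genes, 229 (28.3%) were at least 2-fold higher at harvest there, against 9.91% of all genes tested, and 248 (30.7%) were at least 2-fold lower, against 31.0%. Of the 337 genes below in soft berries 16.6% were higher and 48.1% lower. In touching berries 17.7% of the genes above were higher and 45.8% lower, while 12.7% of the genes below were higher and 46.3% lower. These shares are a description, and no test was run on them.

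Whether a difference depended on stage was tested in a model with Negroamaro-by-stage terms, which measures them against how stage changes varied among the other 4 cultivars. A single gene passed, which is 0.00550% of those tested, and 860 genes had an unadjusted p under 0.05, 4.73% of all. The gene was VIT_11s0206g00200, on chromosome field 11, with 23.0, 36.3 and 0.615 FPKM in pea-sized, touching and soft Negroamaro berries. The others had at most 0.193, 0.438 and 0 FPKM, at or near 0 throughout. On the log2(FPKM + 1) scale its change at softening was lower by 4.34 in Negroamaro than in the others (interaction -4.34, SE 0.30, limma adjusted p = 0.00669, and limma F test over both steps, adjusted p = 0.0122). The others had almost no level to lose, so the test measured the fall in Negroamaro against columns near 0. They averaged 0.0718 FPKM, so the gene passed the 1 FPKM filter only through Negroamaro. The number of genes passing was 0 when Sangiovese, Barbera or Refosco was left out and with a pseudocount of 0.1 FPKM. It was 17 with a pseudocount of 5 FPKM and 154 without a filter. At a mean of at least 5 FPKM it was also 0, but VIT_11s0206g00200 averaged less than that and was not tested there. For the step from pea-sized to touching berries 0 genes passed in limma, and 197 had an unadjusted p under 0.05. For the step from touching to soft berries 1 gene passed, VIT_11s0206g00200, and 1084 had an unadjusted p under 0.05.

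Taken over all genes, the distance of Negroamaro from the other cultivars overlapped the distances among them. In pea-sized berries 1335 (Primitivo) to 1830 genes (Barbera) were at least 2-fold apart between Negroamaro and another cultivar, and 1293 to 2111 between pairs of the others. In touching berries the ranges were 1632 to 1911 and 1447 to 1896, and in soft berries 1950 to 2399 and 1908 to 2681. By this count Primitivo was the nearest in pea-sized and touching berries and Sangiovese in soft ones, while Barbera was the farthest at the first stages and Refosco in soft berries. By Pearson's correlation across genes, which are not independent replicates, soft Negroamaro was about equally near to Barbera (0.934) and Sangiovese (0.932). The same contrast called 243 genes above and 238 below in Sangiovese, 158 and 188 in Barbera, 204 and 222 in Refosco and 208 and 282 in Primitivo. These contrasts share their columns and were not tested against each other.

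The harvest columns took no part in choosing the 528 called genes, and for many of them the column labelled Primitivo, not the one labelled Negroamaro, was the one that stood apart. Of the 316 genes above, the harvest column labelled Primitivo was the highest of the 5 by at least 2-fold over the mean of the others in 149 (47.2%), and the column labelled Negroamaro in 7 (2.22%). The columns labelled Sangiovese, Barbera and Refosco were so in 19, 17 and 35 genes. Of the 212 genes below, the column labelled Primitivo was the lowest by at least 2-fold in 67 (31.6%), the one labelled Negroamaro in 17 (8.02%), and the other 3 in 11 to 14. The same shares over all genes tested are not given here, so these compare the 5 columns within the called genes only. For VIT_09s0018g01410 the column labelled Primitivo had 0.216 FPKM and the one labelled Negroamaro 66.9 FPKM. For VIT_00s0187g00030 they had 12.4 and 0.124 FPKM, and for VIT_15s0024g00940 8.18 and 0.186 FPKM. VIT_10s0116g00040 was listed at 0 in the column labelled Primitivo and at 94.2 FPKM in the one labelled Negroamaro. With the harvest columns used as labelled, 61 genes were above and 62 below.

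**Figure D5:**
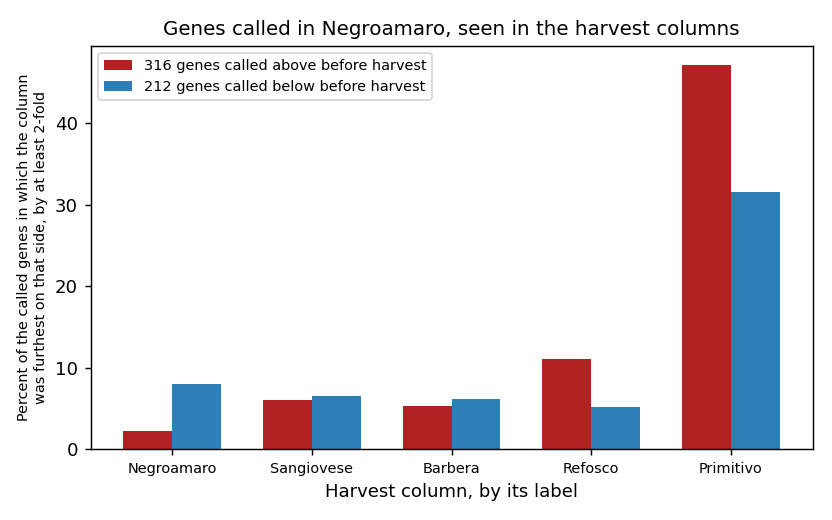
Percent of the genes called above (red) and below (blue) before harvest in which a harvest column, named by its label, was the furthest of the 5 on that side by at least 2-fold. The column labelled Primitivo reaches 47.2% and 31.6%, and the column labelled Negroamaro 2.22% and 8.02%.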

How the data were processed

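Each deposited FPKM value was read as a mean of 3 libraries made by the authors, since the table is named as means and its headers carry no replicate number. TopHat2 2.0.6 and Cufflinks 2.0.2 are named in the submitters' processing notes, with no role for either. The genome build and gene models are not stated in the labels. Libraries were non-directional, per the labels' protocols, so strands of overlapping genes cannot be told apart.

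Genes averaging 1 FPKM or more over these 15 columns were tested on log2(FPKM + 1) with R 4.3.3 and limma 3.58.1 (mean-variance trend, 8 residual degrees of freedom, Benjamini-Hochberg, two-sided). Figures used Python 3.11.15. In a search for single-read steps, at most 3.74% of genes under 0.05 FPKM shared a ratio between 2 columns, so no depth was derived and counting error is unknown. On simulated data with 18198 genes the fit found 26% of the changed genes for shifts of 0.5 log2, 78% for 1, 86% for 2 and 100% for 4, and 4 of 149 calls were wrong.

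Named genes were the 2 furthest above and 2 furthest below among those outside the range at all stages and at 10 FPKM or more on the higher side. The rule's longer list and the gene lists by function needed names and were not used. Members and lists were chosen with earlier results of these data known.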

Additional observations from a re-analysis of the deposited data

Results flagged for a closer look

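In touching berries the number of genes at 1 FPKM or more was 17551 in Negroamaro, far from the 17264 to 17326 of the other 4 cultivars for a group of 5. In the other 4 cultivars VIT_00s0187g00030 was at 0.270 FPKM in touching Sangiovese berries, far from the other 3 at 0.105 to 0.118 FPKM. All 4 of these values are near 0. The 2 flags came from 30 groups searched, and chance flags about 1 group in 20. The softening step of VIT_11s0206g00200 differed between Negroamaro and the others, with an interaction of -4.34 on the log2 scale (limma adjusted p = 0.00669). The others were at or near 0 FPKM throughout, so they had almost no level to lose.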

How the results depend on the processing

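Counts moved more with the pseudocount and the stricter filter than with scaling. With a pseudocount of 0.1 FPKM 439 genes were above and 328 below, at 5 FPKM 113 and 80, and at a mean of at least 5 FPKM 154 and 134. Upper-quartile, quantile and equal-total scaling, robust hyperparameters and no filter gave 278 to 312 above and 184 to 262 below. Leaving out one cultivar or stage gave 39 to 404 above and 27 to 266 below, both lowest without touching berries. The harvest columns as labelled gave 61 and 62, and the model of stage and Negroamaro only 72 and 68. Genes depending on stage numbered 0 with a pseudocount of 0.1 FPKM or a mean of at least 5 FPKM, 17 with a pseudocount of 5 FPKM, 154 without a filter, and 0 to 1 when a cultivar was left out; the cause was not tested.

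By stage, a pseudocount of 5 FPKM gave 160 above and 150 below in pea-sized, 275 and 131 in touching, and 392 and 154 in soft berries. A mean of at least 5 FPKM gave 219 and 226, 406 and 223, and 476 above in soft berries. A pseudocount of 0.1 FPKM gave 552 below in touching, and 1215 above and 625 below in soft berries.

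With one cultivar or stage left out the log2 difference of VIT_14s0081g00020 ran from -2.14 to 1.25 and that of VIT_15s0021g00540 from -1.38 to 1.60, both positive without soft berries, and with harvest as labelled the latter was 0.32. Of the other values under the alternatives of the 24 genes followed, which include some not described above, 353 kept their side of the threshold and 71 lost their call. No paired analysis was possible because the columns are means that carry no replicate number.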
